A study of Homo sapiens with 6 samples.

Results

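DNA repair and damage checkpoint genes were examined in EJ bladder cancer cells after transfection with FOXA1. A list of 57 genes was taken, covering damage signalling and checkpoint kinases, homologous recombination, end joining, base excision and single-strand break repair, mismatch repair, direct reversal, nucleotide excision repair, the Fanconi anaemia pathway and the RecQ helicases. A probe set, which is a group of short oligonucleotides that reads 1 transcript on the array, was assigned to a gene when its annotation gave exactly 1 symbol, and each gene was read by its brightest probe set (mean log2 signal over all arrays). In this way 53 of the 57 genes were measured, of 19775 genes on the array, through 117 probe sets in all. BRCA2, PMS2, FANCA and FANCD2 had no probe set with a single symbol in the annotation used here and are not analysed. The signal exceeded the median of all probe sets (13.5) for 52 of the 53 genes, the exception being XRCC3, a homologous recombination gene. The same held for 12095 of the 19775 genes, and a signal above this median is not a detection call.

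EJ cells, also known as T24, are an established line from a human invasive bladder carcinoma. RNA was taken from 3 samples of FOXA1 transfected cells and from 3 control samples, and each was hybridised to 1 HG-U133 Plus 2.0 array. FOXA1 is a forkhead transcription factor of differentiated urothelium, and the study transfected it to find genes that respond to it in cells of an invasive tumor. The FOXA1 transfected cells received a FOXA1 construct by lipofection, while the control cells received an empty plasmid, given as pUC19 in the labels and as an empty vector in the methods, where the FOXA1 vector is pcDNA3. All 6 samples came from the same line, and no source used here describes a selection for cells that took up the plasmid. The methods describe transfection by the dish and experiments in triplicate, but do not tie the 3 arrays of a group to separate dishes, so p-values measure the spread between these arrays only, which may be technical.

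Cells repair DNA by several routes that share some proteins. The kinases ATM and ATR sense broken or stalled DNA and halt the cell cycle through CHEK2 and CHEK1. Double-strand breaks are rejoined either by homologous recombination, which copies the sister chromatid in S and G2 phase, or by end joining, while base excision, nucleotide excision and mismatch repair replace damaged or mispaired bases, and the Fanconi anaemia proteins unhook crosslinks between strands. Nucleotide excision repair and crosslink repair are of particular interest in bladder cancer, since they remove the adducts and crosslinks formed by platinum drugs.

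Every value is a MAS5 signal on a linear scale, and every difference is the log2 signal in FOXA1 transfected cells minus that in control cells, from limma with Benjamini-Hochberg adjustment over 54613 probe sets. Directions follow the sample labels, and they oppose the direction given in the study's own list of changed genes from these arrays. FOXA1 itself had signals of 38.9, 34.8 and 31.9 in FOXA1 transfected cells, against 21.8, 24.4 and 21.0 in control cells, with no overlap, but the difference of 0.65 (SE 0.23) did not pass (limma adjusted p = 0.307). The 3'/5' signal ratio of ACTB, a measure of RNA quality, was 2.37 ± 0.228 in FOXA1 transfected cells and 1.73 ± 0.188 in control cells (SD, n = 3 each, exact two-sided permutation p = 0.1, the smallest the design allows), and that of GAPDH was 0.920 ± 0.0217 in FOXA1 transfected cells and 0.899 ± 0.00926 in control cells (SD, n = 3 each, exact p = 0.3). The part of RNA quality in the differences described here was not tested. Median signals were 14.4 to 17.5 in FOXA1 transfected arrays and 12.3 to 16.1 in control arrays, and log2 signals of any pair of arrays correlated at 0.924 to 0.936 across probe sets. Of 14 urothelial markers measured, 10 differences were above 0 (71.4%, beside 59.2% of all genes). The 4 below 0 were EPCAM (-0.71, SE 0.69), KRT5 (-0.66, SE 0.83), KRT19 (-0.35, SE 0.75) and PPARG (-0.15, SE 0.22), all with overlap. UPK1B, PPARG, KRT7, KRT8 and KRT18 exceeded the median signal, while UPK2, UPK3A, KRT20, KRT19 and CDH1 lay under the 20th percentile of all signals. The uroplakin UPK1B averaged 25.3 in FOXA1 transfected cells and 14.9 in control cells, without overlap (0.80, SE 0.35, adjusted p = 0.42), and KRT7 was also higher on every FOXA1 transfected array (0.37, SE 0.27). The summed signal of the 14 was 2524 to 2723 in FOXA1 transfected cells and 2226 to 2545 in control cells. Most of this sum was KRT18, which averaged 2478 in FOXA1 transfected cells and 2261 in control cells, with overlap (0.13, SE 0.08). The sum therefore says little about the other markers, and the part of differentiation in the repair gene differences was not tested. Of 3 mesenchymal markers, CDH2 (-0.45, SE 0.09, limma adjusted p = 0.118) and FN1 (-0.88, SE 0.46) were lower on every FOXA1 transfected array. The third, VIM, averaged 4068 in FOXA1 transfected cells and 3836 in control cells, with overlap (0.08, SE 0.10). The summed signal of 15 markers of leukocytes, endothelium, muscle and nerve was 165 to 185 in FOXA1 transfected cells and 131 to 182 in control cells, with 3 of them above the median signal and CD14, CDH5 and CNN1 under the 20th percentile.

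None of the repair and checkpoint genes passed the test. In these bulk samples a lower signal from fewer expressing cells and one from less RNA per cell cannot be told apart. Of the 53 measured, 0 rose and 0 fell at a limma adjusted p of 0.05, beside 0.0607% of all genes that rose and 0.0303% that fell, and none of the 117 probe sets passed either. The smallest adjusted p of a gene was 0.118 (ERCC2), and SAM, the test named in the methods, also called 0. At an unadjusted p under 0.05 there were 6 genes (ERCC2, FANCI, ERCC8, XRCC2, ERCC3 and RAD50), or 11.3%, while 14.6% of all genes and 19.7% of genes above the median signal were past the same value. The test passed few genes anywhere on the array, so the intervals are given as well. The 95% interval of the difference lay within a 2-fold change in either direction for 51 of the 53 genes, and within a 1.5-fold change for 47. The median SE was 0.11 and the median half-width of the interval 0.24 on the log2 scale.

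Differences ran from -0.48 (ERCC8) to 0.58 (XRCC2). They were above 0 for 23 genes and below 0 for 30, with a median of -0.02, against a median of 0.07 over all genes, 59.2% of which were above 0. This split depends on how the arrays are scaled. With each array centred on its median, 4 genes were above 0 and 49 below (7.55% above), since the centring moved the median of all genes to -0.11 (38.3% above 0). The median of the repair genes minus that of all genes was -0.09 on the signals as deposited, and centring cannot change this gap. It was -0.04 with quantile normalization and -0.05 without dim probe sets, and with 1 array left out it ran from -0.03 (without control replicate 2) to -0.14 (without control replicate 3). In FOXA1 transfected cells all 3 arrays were above all 3 control arrays for 4 genes (XRCC2, ERCC2, FANCC and MUTYH), or 7.55%, where 12.5% of all genes and 14.6% of those above the median signal had that order. All 3 were below all 3 control arrays for 6 genes (ERCC8, FANCI, ERCC3, XRCC4, ATR and FANCL), or 11.3%, where 7.25% of all genes and 10.4% of those above the median signal did.

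**Figure D1:**
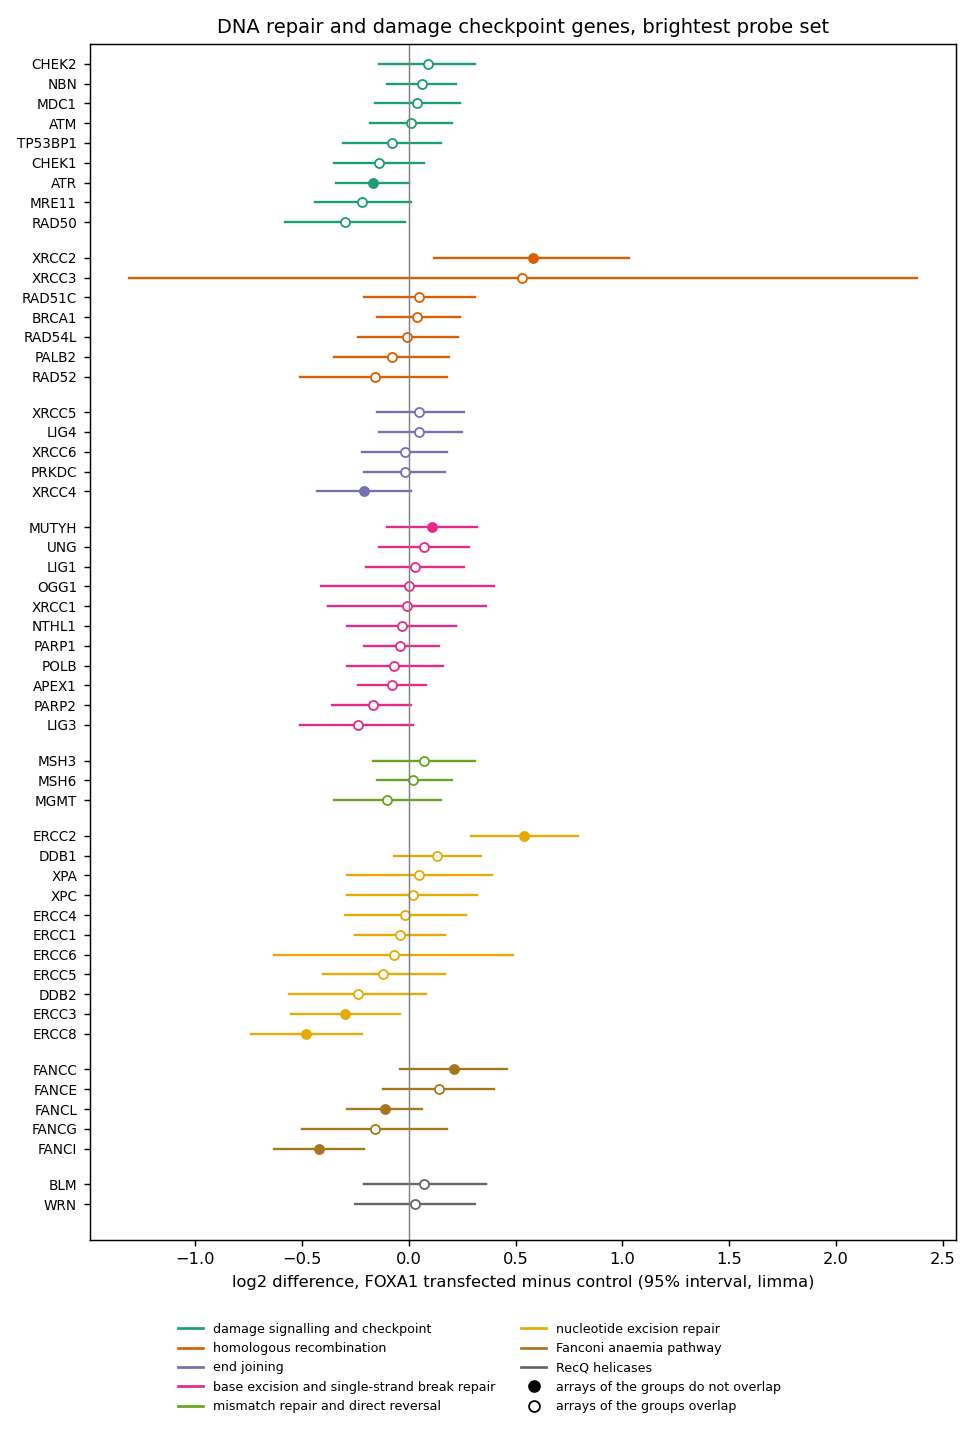
Log2 difference, FOXA1 transfected minus control, of the 53 measured repair and checkpoint genes at their brightest probe set, by pathway, with the 95% interval from limma (3 arrays a group). Most points lie within 0.30 of 0, and the filled points are the 10 genes whose arrays do not overlap between the groups; none passed after adjustment.

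Nucleotide excision repair held 3 of the 6 genes at an unadjusted p under 0.05 (3 of its 11 genes, or 27.3%, where 19.7% of all genes above the median signal were past that value), among them ERCC2, the gene with the smallest p. ERCC2 (XPD), a helicase of the transcription factor TFIIH that opens DNA around a lesion, had signals of 132.9, 125.7 and 125.4 in FOXA1 transfected cells, against 87.9, 83.5 and 92.7 in control cells (probe set 235399_at). The FOXA1 transfected arrays were all higher and close to each other, and the difference was 0.54 (SE 0.11, 95% interval 0.29 to 0.79, limma adjusted p = 0.118). The other ERCC2 probe set (213468_at) gave 0.07 (SE 0.19), with overlapping arrays, so the difference at the brightest probe set was not seen at both. ERCC3 (XPB), the partner helicase in TFIIH, was lower on every FOXA1 transfected array. Its signals were 134.1, 135.8 and 143.9 in FOXA1 transfected cells and 193.1, 151.3 and 165.7 in control cells, a difference of -0.30 (SE 0.12, adjusted p = 0.363).

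ERCC8 (CSA) acts in transcription-coupled repair, the branch that serves RNA polymerase stalled at a lesion. It had signals of 159.6, 183.0 and 139.9 in FOXA1 transfected cells, against 204.6, 237.0 and 226.4 in control cells. Every FOXA1 transfected array was lower, and the difference was -0.48 (SE 0.12, 95% interval -0.74 to -0.22, adjusted p = 0.176). This too was found at a single probe set (1554883_a_at), since the other 3 gave 0.18, -0.02 and -0.06 with overlapping arrays. ERCC6 (CSB), which acts with ERCC8, gave -0.07 (SE 0.25) at its brightest probe set and 0.28 (SE 0.26) at the other.

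The remaining genes of the pathway overlapped between the groups. The lesion sensors XPC (0.02) and DDB1 (0.13), the scaffold XPA (0.05) and the incision nucleases ERCC1 (-0.04), ERCC4 (-0.02) and ERCC5 (-0.12) all had intervals that include 0. DDB2, a p53 target that binds ultraviolet photoproducts, gave -0.24 (SE 0.15) and averaged 136 ± 8.94 in FOXA1 transfected cells and 163 ± 32.1 in control cells (SD, n = 3 each), where 1 control array, at 126.3, lay below all FOXA1 transfected ones. A second ERCC1 probe set (228131_at) averaged 241 ± 18.9 in FOXA1 transfected cells and 305 ± 32.8 in control cells (SD, n = 3 each), a difference of -0.34 (SE 0.11, adjusted p = 0.263) that the brightest did not share. Over the 11 genes, 4 were above 0 and 7 below, with a median of -0.04.

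In the Fanconi anaemia pathway, FANCI, which forms with FANCD2 the clamp that is ubiquitinated at a crosslink, had signals of 640.1, 767.2 and 766.4 in FOXA1 transfected cells, against 930.7, 924.7 and 1046.9 in control cells (213007_at). All FOXA1 transfected arrays were lower, by -0.42 (SE 0.09, 95% interval -0.63 to -0.21, adjusted p = 0.144). The other FANCI probe sets had the same sign with smaller sizes, -0.17 (SE 0.09, arrays not overlapping) and -0.09 (SE 0.10, overlapping). FANCL, the ubiquitin ligase that acts on this clamp, had 885.5, 892.7 and 782.4 in FOXA1 transfected cells and 907.1, 958.2 and 898.5 in control cells. These groups were barely separated, and the difference was -0.11 (SE 0.08, adjusted p = 0.645). FANCC, of the core complex around the ligase, was higher on every FOXA1 transfected array, with 115.5, 114.2 and 121.9 in FOXA1 transfected cells against 103.4, 94.8 and 106.7 in control cells, a difference of 0.21 (SE 0.11, adjusted p = 0.531), while core members FANCE (0.14) and FANCG (-0.16) overlapped.

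Among the damage signalling genes ATR was the only one without overlap at the brightest probe set. The kinase had signals of 487.4, 457.1 and 457.5 in FOXA1 transfected cells and 539.6, 526.7 and 509.0 in control cells, a difference of -0.17 (SE 0.08, adjusted p = 0.446). A second probe set (209902_at) was also lower on all FOXA1 transfected arrays, at -0.25 (SE 0.10, adjusted p = 0.346), while the third (233288_at) lay under the median signal and was too dim to read. CHEK1, the kinase that ATR activates, gave -0.14 (SE 0.10), and CHEK2, the target of ATM, gave 0.09 (SE 0.10), both with overlap. Another CHEK1 probe set (205394_at) was lower on every FOXA1 transfected array, at -0.10 (SE 0.09). The ATM reading depends on the probe set: the brightest gave 0.01 (SE 0.09), and the 3 others above the median signal 0.66 (SE 0.22), -0.41 (SE 0.20) and -0.15 (SE 0.22). The first of these 3 was higher on every FOXA1 transfected array and the second lower on every one. TP53BP1 (-0.08) and MDC1 (0.04), which gather at marked chromatin beside a break, overlapped.

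No gene of the MRE11-RAD50-NBN complex, which holds and trims broken ends and recruits ATM, passed. RAD50 had 296.5, 361.5 and 286.3 in FOXA1 transfected cells, against 364.0, 462.8 and 339.7 in control cells, with an overlap through the second FOXA1 transfected array and a difference of -0.30 (SE 0.13, adjusted p = 0.413). Its other probe sets gave 0.05 (SE 0.17) and -0.03 (SE 0.14). MRE11 gave -0.22 (SE 0.10) with overlap. Its other probe set above the median signal (242456_at) gave -0.38 (SE 0.18), lower on every FOXA1 transfected array. NBN gave 0.06 (SE 0.07), with -0.01, -0.05 and -0.04 at its other probe sets above the median signal, so its direction is not settled.

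In homologous recombination, XRCC2 had the largest difference of the list. This gene, which acts in the strand invasion step, had 77.7, 60.9 and 55.8 in FOXA1 transfected cells, against 33.1, 50.1 and 48.0 in control cells. The arrays did not overlap, but those within each group spread widely, and the difference of 0.58 (SE 0.21, 95% interval 0.12 to 1.03) had an adjusted p of 0.319 in limma. Its single probe set (207598_x_at) is of the class that may also hybridise with other transcripts. XRCC3 was listed at 8.4, 14.4 and 2.8 in FOXA1 transfected cells and 12.2, 4.6 and 2.0 in control cells, too dim for its 0.53 (SE 0.84) to be read. BRCA1 (0.04, SE 0.09), its partner PALB2 (-0.08, SE 0.12), RAD51C (0.05, SE 0.12), RAD54L (-0.01, SE 0.11) and RAD52 (-0.16, SE 0.16) overlapped between the groups. The other RAD52 probe set above the median signal (210630_s_at) was lower on every FOXA1 transfected array, at -0.30 (SE 0.25).

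Among the end joining genes, the Ku subunits XRCC5 (0.05, SE 0.09) and XRCC6 (-0.02, SE 0.09), which cap broken ends, and the kinase they recruit, PRKDC (-0.02, SE 0.09), had overlapping arrays and intervals within 0.26 of 0. LIG4, which seals the break, had 247.9, 252.8 and 262.9 in FOXA1 transfected cells and 260.1, 242.0 and 233.9 in control cells (0.05, SE 0.09), and these also overlapped. XRCC4, the scaffold of LIG4, had 221.0, 237.5 and 233.0 in FOXA1 transfected cells, against 251.0, 299.3 and 252.3 in control cells (-0.21, SE 0.10, adjusted p = 0.46). Its probe sets did not share a direction. One of them (205071_x_at) had the smallest adjusted p of all 117, with a mean of 163 in FOXA1 transfected cells and 231 in control cells. Its difference was -0.50 (SE 0.09, limma adjusted p = 0.0973), and it is of the class that may also hybridise with other transcripts. The other 2 gave 0.10 (SE 0.13) and 0.15 (SE 0.34).

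Base excision and single-strand break repair genes had a median of -0.03, with 8 of 11 below 0 and none at an unadjusted p under 0.05. MUTYH, which removes adenine opposite oxidised guanine, had 244.8, 217.5 and 213.7 in FOXA1 transfected cells and 209.0, 213.0 and 203.0 in control cells. The groups were separated by less than 1 signal unit, and the difference was 0.11 (SE 0.09, adjusted p = 0.709). PARP2, which marks strand breaks with poly(ADP-ribose), gave -0.17 (SE 0.08, limma adjusted p = 0.47) with overlap. Its other 2 probe sets gave -0.17 (SE 0.10) and -0.22 (SE 0.09), the last without overlap. All but the last (215773_x_at and 204752_x_at) are of the class that may also hybridise with other transcripts. LIG3, the ligase of this route, had 127.7, 107.0 and 125.7 in FOXA1 transfected cells and 151.7, 127.6 and 147.1 in control cells, a difference of -0.24 (SE 0.12) with arrays just overlapping, but its 4 other probe sets above the median signal spanned -0.32 to 0.46. PARP1 (-0.04), POLB (-0.07), APEX1 (-0.08), NTHL1 (-0.03), XRCC1 (-0.01), LIG1 (0.03) and UNG (0.07) overlapped.

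The mismatch and direct reversal genes were MSH3 (0.07, SE 0.11) and MSH6 (0.02, SE 0.08), which take part in mispair recognition, and MGMT (-0.10, SE 0.11), which strips alkyl groups from guanine. MGMT had 196.0, 190.0 and 186.7 in FOXA1 transfected cells, inside the range of 227.0, 214.6 and 175.6 in control cells. The RecQ helicases BLM (0.07, SE 0.13) and WRN (0.03, SE 0.13), which unwind recombination intermediates, overlapped as well.

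**Figure D2:**
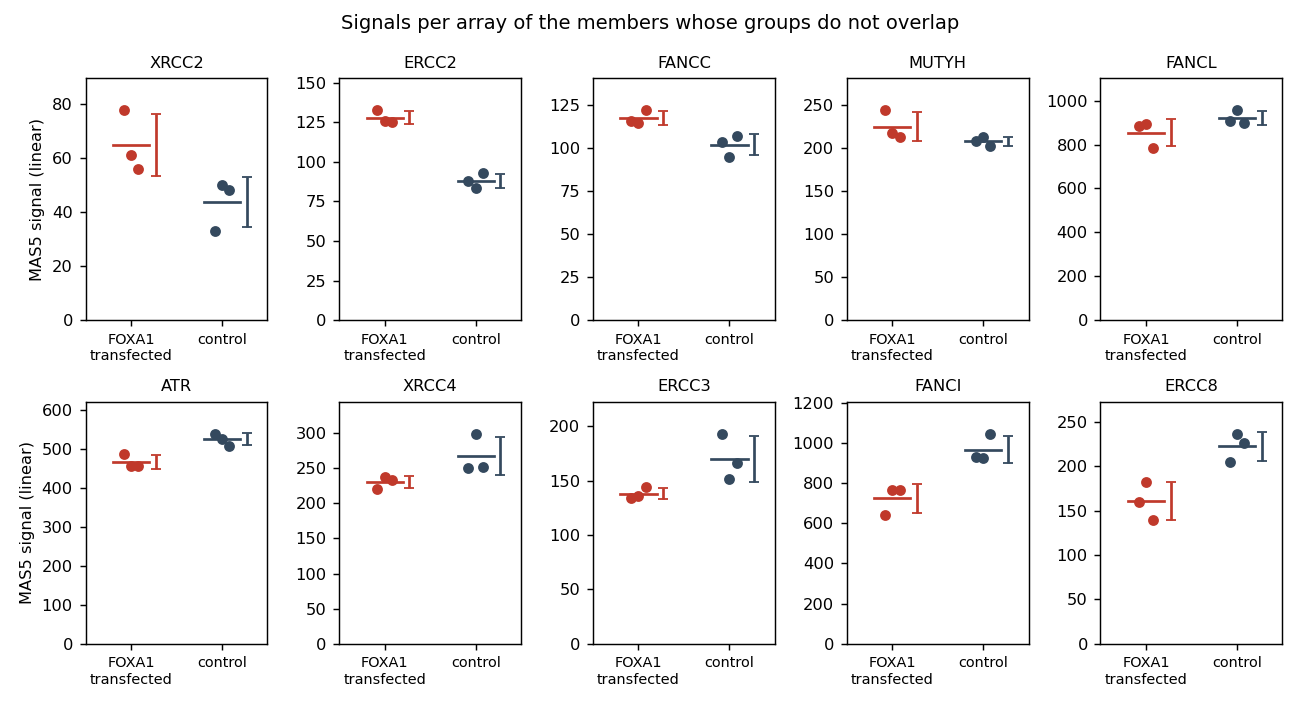
MAS5 signal (linear, from 0) on each of the 3 FOXA1 transfected and 3 control arrays for the 10 genes whose groups do not overlap; horizontal lines are means and bars ± SD. The separation is wide for ERCC2 (125.4 and above, against 92.7 and below) and narrow for MUTYH and FANCL.

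How far the array gives 1 gene the same reading through different probe sets bears on all of these differences. Of the 53 genes, 24 had 1 probe set and 29 had several. In 25 genes at least 2 probe sets exceeded the median signal, and these agreed in sign with each other in 14 and differed in 11 (ATM, CHEK1, NBN, RAD50, RAD51C, XRCC4, XRCC5, LIG3, OGG1, ERCC6 and ERCC8). For CHEK1 the 3 probe sets gave -0.14, -0.10 and 0.10, for NBN 0.06, -0.01, -0.05 and -0.04, for RAD51C 0.05 and -0.04, for XRCC5 0.05, -0.05 and 0.25, and for OGG1, a glycosylase of oxidised guanine, -0.00 and 0.39. LIG3 gave -0.24, 0.02, 0.02, 0.46 and -0.32. At NBN, RAD51C and XRCC5 each of these differences was smaller than its SE. A differing sign there does not show that the probe sets read the gene differently. Probe sets of 1 gene can read different transcripts, and which transcript each reads was not examined here.

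**Figure D3:**
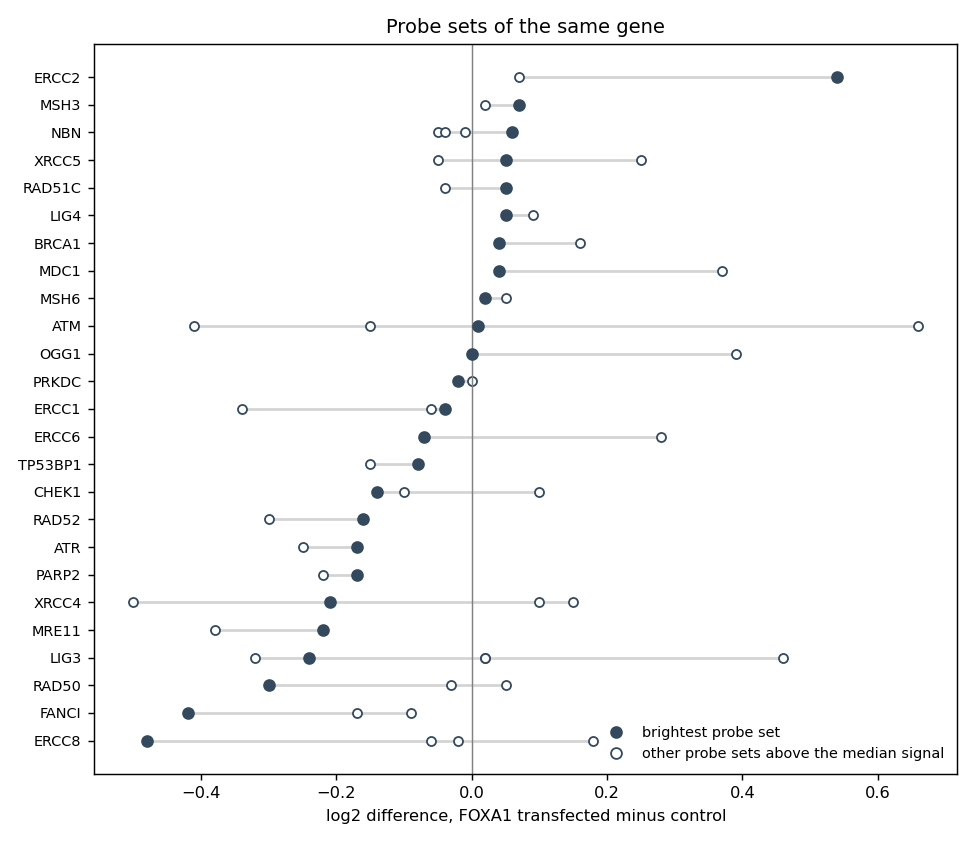
Log2 difference, FOXA1 transfected minus control, at each probe set above the median signal, for the 25 genes with at least 2 such probe sets; filled points are the brightest. FANCI, ATR and PARP2 lie on 1 side of 0 at every such probe set, while ATM, XRCC4, LIG3 and ERCC8 lie on both.

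A further 70 repair and checkpoint genes outside the list were examined in the same way, of which 63 were measured. None passed (0 rose and 0 fell), 31 differences lay above 0 and 32 below (median -0.008), and 9 had an unadjusted p under 0.05 (14.3%). All FOXA1 transfected arrays were above all control arrays for 8 of them (12.7%) and below for 5 (7.94%). The shares were 12.5% and 7.25% of all genes, and 14.6% and 10.4% of those above the median signal. Of the 11 measured nucleotide excision repair genes among them, 0 had an unadjusted limma p under 0.05, beside 19.7% of all genes above the median signal. The arrays overlapped for all 11. RAD51D, in the same complex as XRCC2, had 52.0, 50.4 and 51.3 in FOXA1 transfected cells, against 32.3, 33.0 and 38.4 in control cells (0.57, SE 0.18, adjusted p = 0.26). RAD51AP1, which aids strand exchange, had 897.0, 1013.7 and 1014.8 in FOXA1 transfected cells, against 1097.5, 1309.4 and 1213.8 in control cells (-0.31, SE 0.09, adjusted p = 0.235), so that genes of the same step lay on both sides. UBE2T, the conjugating enzyme that works with FANCL, gave -0.20 (SE 0.08), and FANCB, of the core complex, 0.37 (SE 0.16), both without overlap. RAD17, which loads the checkpoint clamp beside ATR, was lower on every FOXA1 transfected array (-0.35, SE 0.10, adjusted p = 0.241), while the clamp subunits HUS1 (0.16, SE 0.10) and RAD9A (0.23, SE 0.14) were higher on every one, and the third subunit, RAD1, gave -0.01 (SE 0.08) with overlap. These genes were picked for their values or as partners of other genes named here. Not described were TDG, MUS81, USP1 and RECQL4, also higher on every FOXA1 transfected array, and PMS1 and POLM, lower on every one.

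Expression of many repair genes varies over the cell cycle, so lists of S phase and mitosis genes were read beside them. Of 16 S phase genes, 13 were above 0, with a median of 0.13, and 4 had no overlap (MCM3, MCM5, PCNA and E2F1). With arrays centred on their medians 5 of the 16 were above 0 and the median was -0.06, which is 0.05 above that of all genes. Of 16 mitosis genes 12 were below 0, with a median of -0.14 (-0.33 with centred arrays), and 5 were lower on every FOXA1 transfected array (MKI67, CCNB2, CENPE, CENPF and BIRC5). Of all genes above the median signal, 14.6% were higher on every FOXA1 transfected array, beside 4 of the 16 S phase genes, and 10.4% were lower, beside 5 of the 16 mitosis genes (31.2%). CENPF differed by -0.38 (SE 0.08, adjusted p = 0.107) and BIRC5 by -0.37 (SE 0.08, adjusted p = 0.113). None of the 32 passed. The part of cell cycle phase in the repair gene differences was not tested.

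**Figure D4:**
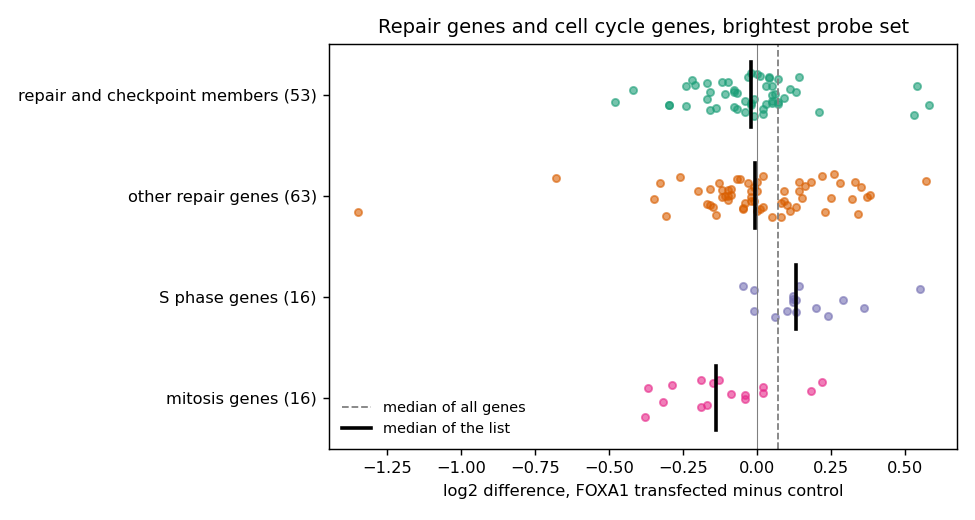
Log2 difference, FOXA1 transfected minus control, of single genes in 4 lists at their brightest probe set, with the median of each list as a black bar and that of all genes (0.07) as a dashed line. The repair and checkpoint genes and the other repair genes centre near 0 (-0.02 and -0.008), the S phase genes at 0.13 and the mitosis genes at -0.14.

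Promoter sequence was available for 51 of the 57 genes, as 74 windows of 300 bases, from 250 before to 50 after an annotated start (RefSeq, GRCh38.p14). The forkhead motifs TGTTTAC and TGTTTGC, searched on both strands, were in 0 of the 74 windows and in 7.17% of 35116 windows of all genes, the median GC content being 64.3% in the repair windows and 58.7% in all. The E2F motif, which marks many S phase genes, was searched after the results above were seen, as TTTCCCGC, TTTCGCGC, TTTGCCGC or TTTGGCGC on both strands. It was in 12 of the 74 windows (16.2%, from 11 genes) and in 3.31% of all windows. In 81 windows of the other repair genes, of the same median GC content, the E2F motif was in 6 (7.41%) and the forkhead motifs in 0. Of the 11 genes 8 were measured (XRCC2, FANCC, MSH3, MSH6, XPC, UNG, LIG1 and XRCC6). These were above 0 in 7 cases and below in 1 (median 0.05, under the 0.07 of all genes), while the 39 measured genes with a window and no match were above 0 in 13 cases and below in 26 (median -0.04). Above the median of all genes lay 3 of the 8 and 7 of the 39. Except for XRCC2 and FANCC, each of the 8 differed from 0 by less than its SE, so their signs say little. With median centring 2 of the 8 and 2 of the 39 were above 0, and the medians were -0.13 and -0.23. A match is a description of letters and not a binding site, and the absence of one says only that these letters are not in the window.

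The matches of XRCC2 and FANCC, which were higher on every FOXA1 transfected array, and of MSH3 are shown 5′ to 3′ on the strand of the gene, with the motif in capitals. In MSH3, 2 motifs on opposite strands overlap, and the first of them is marked.
XRCC2 (chr7:152676102-152676131, minus strand): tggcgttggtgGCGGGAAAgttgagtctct
FANCC (chr9:95317863-95317892, minus strand): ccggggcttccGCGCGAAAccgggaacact
FANCC (chr9:95317737-95317766, minus strand): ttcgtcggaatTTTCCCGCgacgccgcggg
MSH3 (chr5:80654534-80654563, plus strand): gcgcggtcaagTTTGGCGCgaaattgtggc
The XRCC2 match starts 21 bases after the annotated start, the FANCC matches 172 and 46 bases before it and the MSH3 match 107 bases before it. The genes with the smallest p (ERCC2, FANCI and ERCC8) differ in what can be said here: ERCC2 and ERCC8 had windows with no match, and FANCI had no window.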

How the data were processed

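The 6 arrays were grouped by the sample labels (3 FOXA1 transfected, 3 control). The authors deposited MAS5 signals, an intensity on a linear scale for each probe set, scaled so that the mean of each array without its highest and lowest 2% was 100.01. RMA conversion to log2, which the methods name before SAM, is not part of the deposited signals. Detection calls were not used. Of the probe sets, 62 array controls were left out and 54613 tested, 41091 of them with a single symbol. The 25 signals listed at 0 were set to 0.1, and limma 3.58.1 (R 4.3.3) was run on log2 values (lmFit, eBayes with an intensity trend, two-sided, threshold 0.05 after Benjamini-Hochberg adjustment). The fit was tested on simulated data. The changes planted there were larger than any difference of the listed genes, so that test does not show whether changes of their size would be called.

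The genes, lists and tests were chosen with earlier results of these data known. Named were every gene without overlap of the groups and the 2 of smallest p in each pathway, 19 in all. Genes outside the list were named for their values or as partners of other named genes. Alternatives were no intensity trend, SAM, quantile normalization, median centring, a floor at the 20th percentile (3.5), leaving out dim (mean signal of 13.5 or less) or _x_at probe sets, the median over a gene's probe sets, a block for the replicate number, and 1 array left out at a time. The number of arrays limits the precision.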

Additional observations from a re-analysis of the deposited data

How the results depend on the processing

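None of the listed repair and checkpoint genes passed in any of the 15 alternatives, and none of the other repair genes in the 14 in which they were read. The lowest adjusted p among the 19 named genes over these alternatives was 0.065 (FANCI). The count of probe sets past the threshold over the whole array was unstable, at 32 in limma with the intensity trend, 1 without it, 4 in SAM, 7 with median centring, 179 without dim probe sets and 4 to 76 with 1 array left out (lowest without control replicate 3, highest without FOXA1 transfected replicate 3). With the replicate number as a block it was 85, and the calls again held 0 of the genes. Arrays of the same number correlated in their deviations at 0.05, 0.182 and 0.111, and each correlated best with its own number, which is a hint from the data only, so the numbers were not taken as pairs. The median of the genes was -0.20 with median centring, and -0.04 to 0.001 with 1 array left out. Of the 19 named genes 10 kept their sign in every alternative in which they were read, which for XRCC2, with only an _x_at probe set, were 14. Not all alternatives could change a sign. Dropping the trend, SAM and the replicate block use the same log2 means, and leaving out dim probe sets keeps the difference of those left in. For genes with 1 probe set the median over probe sets is also fixed. Among the 10, RAD50 and MGMT came as near to 0 as -0.02. Median centring turned LIG4 (-0.13), MUTYH (-0.07), MSH3 (-0.11), BLM (-0.11) and WRN (-0.16). The median over a gene's probe sets turned RAD52 (0.20), LIG3 (0.23), ERCC8 (0.08) and FANCC (-0.46), the other FANCC probe sets being dim. With 1 array left out, MSH3 ran from -0.04 to 0.13, BLM from -0.01 to 0.21 and WRN from -0.06 to 0.1. None of these had passed. The cause was not tested, except that centring shifts all genes together.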
